A study of Rattus norvegicus with 10 samples.

Results

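Antioxidant and glutathione genes were followed through 5 times of follicle-stimulating hormone (FSH) treatment in cultured rat Sertoli cells. The members were all probe sets whose only gene symbol begins with Gst, Gpx, Prdx, Sod or Mgst, or is 1 of 30 listed names, with Txnip left out. The rule itself used no measured value, but the members were chosen with earlier results of these data known. It found 68 probe sets of 38 genes among the 8740 probe sets of the array. Of these, 59 probe sets of 35 genes were bright enough to test, against 4439 on the whole array.

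The Sertoli cells, which support developing germ cells in the testis tubules, came from 20-day-old rats, and total RNA was hybridised to 10 arrays. The control group was untreated at 0 h, and the other groups had received FSH for 2, 4, 8 or 24 h, with 2 arrays (n = 2) per group, labelled replicate 1 and replicate 2. The labels give no strain, FSH dose or culture conditions and do not say whether replicates were separate cultures, so p-values measure the spread between these arrays only, which may be technical. No untreated culture was labelled later than 0 h, so time in culture and FSH cannot be told apart.

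Glutathione is a small thiol peptide made by glutamate-cysteine ligase and then glutathione synthetase, and glutathione reductase returns its oxidised form to the reduced one. Glutathione peroxidases and peroxiredoxins remove peroxides, superoxide dismutases turn superoxide into hydrogen peroxide, and glutathione S-transferases join glutathione to reactive compounds. In the glyoxalase pathway glutathione carries methylglyoxal, a by-product of glycolysis, and the hydrolase encoded by Hagh then frees it as lactate is made. Sertoli cells are highly glycolytic and export lactate to germ cells, and they are known for abundant glutathione S-transferases. FSH acts on them through its receptor and cAMP.

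Promoter windows from RefSeq (assembly GRCr8), 250 bases before to 50 after the start of a gene, were matched to 31 of the 38 genes and gave 35 windows. Gstt1, Gstt2, Gsr, Hmox1, Mgst2, Prdx6 and Sod3 had no window. The 250 upstream bases of Hagh are shown because it was the member with the called change over time, with each CCAAT box in capitals. All 3 boxes lie on the opposite strand and so read ATTGG. The window is chr10:14379503-14379752, plus strand, printed 5′ to 3′ up to the base before the start.
Hagh: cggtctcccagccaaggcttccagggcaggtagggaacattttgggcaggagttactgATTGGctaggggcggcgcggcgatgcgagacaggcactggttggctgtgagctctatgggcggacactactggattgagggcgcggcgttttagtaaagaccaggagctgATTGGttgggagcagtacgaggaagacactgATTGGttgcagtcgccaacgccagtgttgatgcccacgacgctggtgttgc
The first capitals of the 3 boxes lie at -192, -82 and -51 from the start, and 3.02% of the 33469 windows of all genes hold at least as many boxes. Among the members, 2 windows of Gpx4 hold 3 as well. The Hagh count was made after its values were known.

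The upstream bases of Gstm5, Gstm1 and Gstm2 are shown because these mu-class transferase genes lie on the same chromosome and are set side by side below, in the comparison of the replicate numbers. Capitals mark matches to TGACNNNGC, the core letters of the antioxidant response element to which the factor Nrf2 is known to bind. The window of Gstm5 is chr2:198219519-198219768 on the plus strand, that of Gstm1 is chr2:198343384-198343633 on the minus strand, and that of Gstm2 is chr2:198316918-198317167 on the minus strand.
Gstm5: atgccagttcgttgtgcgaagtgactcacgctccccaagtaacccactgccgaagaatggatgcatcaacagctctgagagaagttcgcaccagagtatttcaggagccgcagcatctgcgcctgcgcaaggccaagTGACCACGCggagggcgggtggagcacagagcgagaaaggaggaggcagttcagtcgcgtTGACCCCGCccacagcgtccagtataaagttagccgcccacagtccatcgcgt
Gstm1: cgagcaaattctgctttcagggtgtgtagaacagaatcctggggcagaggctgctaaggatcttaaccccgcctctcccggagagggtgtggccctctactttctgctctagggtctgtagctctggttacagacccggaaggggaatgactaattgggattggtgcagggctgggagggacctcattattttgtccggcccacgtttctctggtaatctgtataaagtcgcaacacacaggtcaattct
Gstm2: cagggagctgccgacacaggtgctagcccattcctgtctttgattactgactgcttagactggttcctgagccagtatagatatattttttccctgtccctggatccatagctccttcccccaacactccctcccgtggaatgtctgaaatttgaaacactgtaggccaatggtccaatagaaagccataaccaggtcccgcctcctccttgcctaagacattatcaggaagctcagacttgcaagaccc
Gstm5 held 2 matches, starting at -113 and -53, while the windows of Gstm1 and Gstm2 held none.

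Searched on both strands, the core was present in 10 of the 35 member windows (28.6%) and in 12.1% of all windows. The genes with it were Gclm, Gpx2, Gsta1, Gsta3, Gstm5, Gstm7, Gstp1, Hmox2, Prdx1 and Sod2. The full cAMP response element TGACGTCA was in 0 of the 35, against 1.83% of all windows. Its 5-letter part TGACG, which lies within the full element and can overlap the antioxidant core, was in 17.1% of member windows and 21.2% of all. CCAAT was in 45.7% against 37.5%. These letters describe the windows only, and no binding was measured.

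Before the members are described, 2 features of the arrays are needed. The replicate number moved with other transcripts at every time. The summed intensity of 16 germ cell marker probe sets was 365 to 1146 on replicate 1 arrays and 2741 to 3153 on replicate 2 arrays. That of 24 Sertoli marker probe sets was 17436 to 24046 against 13516 to 18279, and that of the erythroid list, which includes Hbb, was 275 to 748 against 808 to 1882. In this list Hbb was at 65.9 to 213 against 325 to 1127, and Hbb-b1 did not overlap either. The tested probe sets of the other erythroid genes did overlap. Alas2 was at 54.3 to 239 against 107 to 168, and Slc4a1 at 83.1 to 105 against 74.9 to 131. The 3′/5′ ratio of beta-actin, a measure of RNA integrity, was 0.928 to 1.17 against 1.48 to 1.76. That of GAPDH differed less, at 0.735 to 0.904 against 0.914 to 1.06. Of the 24 Sertoli probe sets, 19 passed the intensity limit. Clu, a secreted chaperone, was at 6779 to 13782 and Shbg, an androgen carrier, at 582 to 911. The 5 that did not pass were of Gata1, Krt18, Fshr and Rhox5, each of the last 3 with another probe set that passed, and the Fshr one was at the floor on 9 of 10 arrays. Markers of macrophages summed to 194 to 325 over 17 probe sets, of which 2, both of Cd14, passed the limit, and 8 were at the floor on every array. Peritubular myoid markers summed to 3113 on 24 h replicate 1 and to 396 to 1136 on the other 9 arrays. Fewer cells of a type and less RNA per cell cannot be told apart in these bulk samples.

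Values are intensities scaled to a common 75th percentile of 107 per array, and changes are differences of log2 intensity with their standard error (SE) from limma. A change was called at a Benjamini-Hochberg adjusted p under 0.05 over all 4439 probe sets. The replicate numbers also served as a block in a second fit, which compares arrays of the same number.

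Against 0 h, 0 of the 59 members were called at 2 h, where 0.676% of all probe sets were. At 4 h 0 members were called (0.856% of all), at 8 h 1 member (0.766% of all) and at 24 h 0 members (0% of all). The called member was Hagh. Members with an unadjusted p under 0.05 numbered 0, 4, 5 and 3 at the 4 times, which is 0%, 6.78%, 8.47% and 5.08% of them, against 4.57%, 7.75%, 9.3% and 4.6% of all probe sets. Without the block, the shares of the members at these 4 times thus lay near or below those of the array. With the block, 0 members were called at 2 h (1.22% of all probe sets) and 2 at 4 h (2.95% of all). At 8 h 1 was called (2.68% of all) and at 24 h 0 (0.0901% of all). In this fit 2 members (3.39%) had an unadjusted p under 0.05 at 2 h, against 7.5% of all. At 4 h 6 members did (10.2%), against 12.2% of all, and at 8 h 9 did (15.3%), against 15.5% of all. At 24 h 6 members did (10.2%), against 9.26% of all.

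The median log2 change of the tested members was -0.03 at 2 h, -0.19 at 4 h, -0.14 at 8 h and 0.03 at 24 h. Over all tested probe sets it was -0.02, -0.03, -0.02 and 0.02. These medians depended on the control arrays. Without control replicate 1 they were 0.37, 0.34, 0.36 and 0.45, and without control replicate 2 they were -0.33, -0.50, -0.30 and -0.21. Both settings leave controls of 1 replicate number only, so the difference between the numbers enters them. Within replicate 1 the medians were -0.44, -0.37, -0.45 and -0.04, and within replicate 2 they were 0.32, 0.05, 0.13 and 0.17. As a group, then, the members had no direction over time that held within both replicate numbers.

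**Figure D1:**
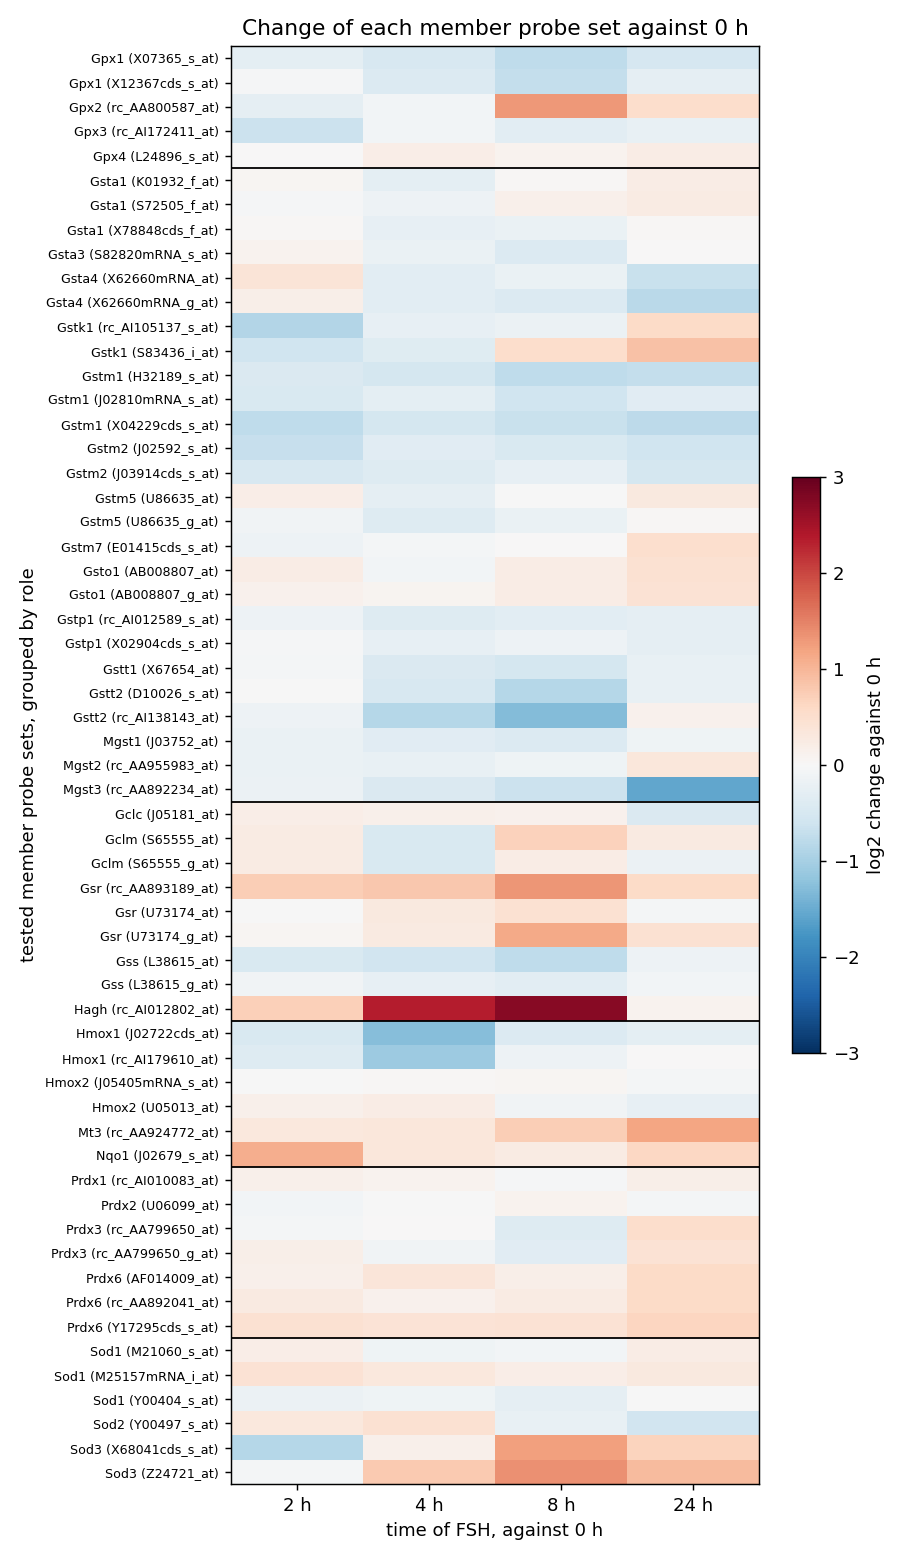
Log2 change against 0 h of the 59 tested member probe sets (one per line, grouped by role between the black lines) at 2, 4, 8 and 24 h; red is higher and blue lower than the controls, on a scale from -3 to 3. Hagh stands out at 4 and 8 h with 2.36 and 2.73, Hmox1 is blue at 4 h on both of its probe sets, and most transferases are faintly blue at 4 h.

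Among the 9 tested probe sets for glutathione synthesis and recycling, Hagh (probe set rc_AI012802_at) rose. Hagh encodes the second enzyme of the glyoxalase pathway, which splits the lactoyl-glutathione thioester. Its intensity was 69.4 and 143 in the controls (replicates 1 and 2), 114 and 234 at 2 h, 580 and 454 at 4 h, 703 and 625 at 8 h, and 89.4 and 128 at 24 h. All 4 arrays of 4 and 8 h lay above the other 6, while the 24 h arrays lay within the range of the controls.

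At 8 h Hagh went from 106 ± 52.2 to 664 ± 55.1 (mean ± SD, n = 2), a 6.65-fold higher level and a log2 change of 2.73 ± 0.47 (SE; limma adjusted p = 0.0368). Within replicate 1 the change was 3.34 and within replicate 2 it was 2.13. The adjusted p was 0.00472 with the block. At 4 h the change of 2.36 ± 0.47 had a limma adjusted p of 0.0622, above the threshold, and of 0.0106 with the block. At 2 h the change was 0.71, and the groups overlapped.

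The later difference of Hagh ran the other way. From 8 h to 24 h its intensity was 6.2-fold lower, a log2 change of -2.63 ± 0.47, with a limma adjusted p of 0.0758, above the threshold, and of 0.0141 with the block. Among the successive times, 0 members were called at 4 h against 2 h (0% of all probe sets) and 0 at 8 h against 4 h (0% of all). At 24 h against 8 h 0 were called (0.225% of all). Members with an unadjusted p under 0.05 numbered 1, 2 and 3 (1.69%, 3.39% and 5.08%), against 3.6%, 3.42% and 6.49% of all. With the block, 0 were called at 4 h against 2 h (0% of all) and 0 at 8 h against 4 h (0.0901% of all). There 5 and 4 members had an unadjusted p under 0.05 (8.47% and 6.78%), against 6.22% and 7.34% of all. At 24 h against 8 h 1 member, Hagh, was called with the block (1.15% of all).

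In limma's F test for a change at any time, 1 member was called, again Hagh (adjusted p = 0.0487), against 0.991% of all probe sets. With the block 1 member was called (Hagh, adjusted p = 0.00562), against 3.22% of all. In the F test 4 members had an unadjusted p under 0.05 (6.78%, against 7.39% of all). With the block 11 did (18.6%, against 13.4% of all). The call of Hagh at 8 h was kept in 10 of 19 alternative settings, with log2 changes of 2.21 to 3.26 over all 19 and adjusted p of 0.0042 to 0.330. It was lost without control replicate 1 (2.21), without either 4 h, either 8 h or either 24 h array, with the deposited scaling and with no intensity filter.

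**Figure D2:**
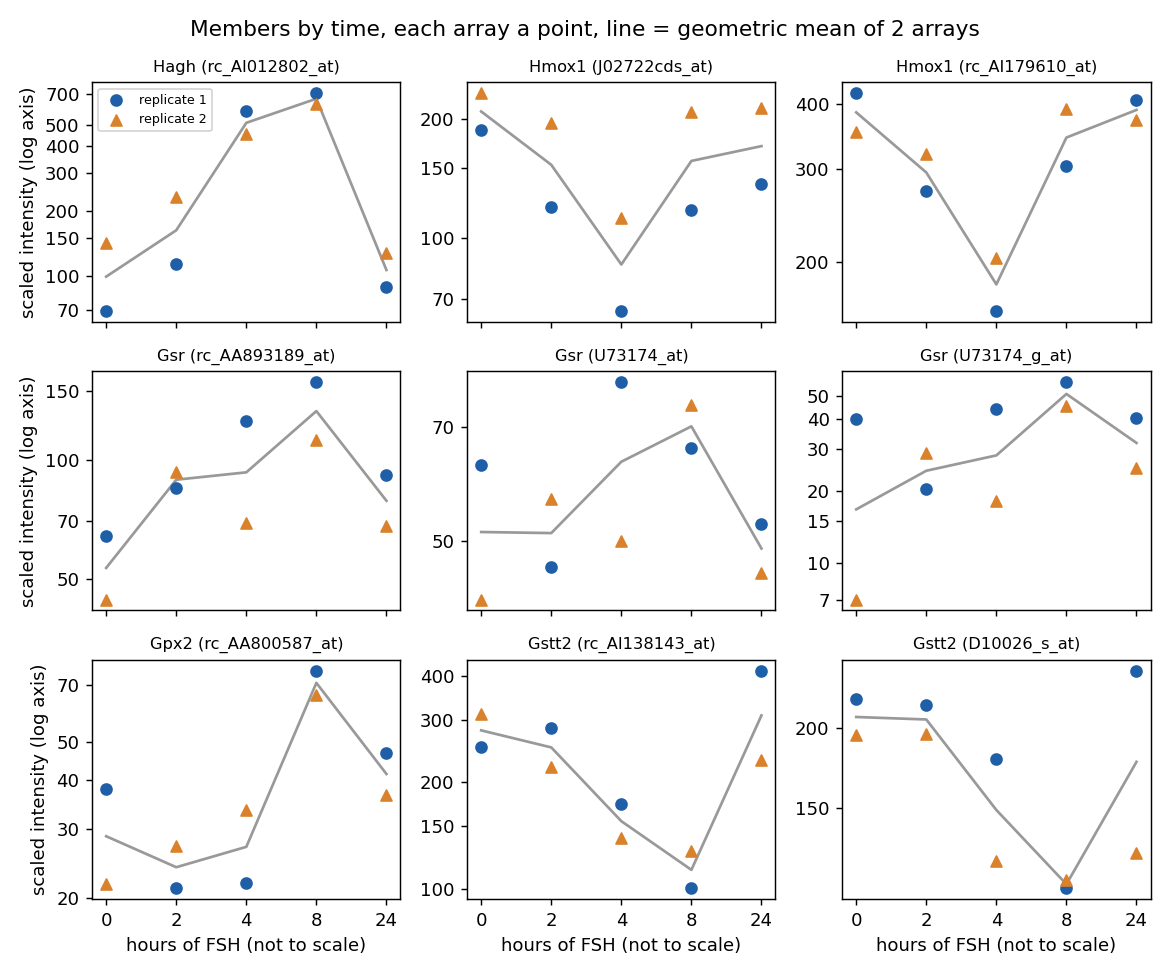
Scaled intensity (log axis, which differs between panels) of 9 member probe sets at 0, 2, 4, 8 and 24 h of FSH, with replicate 1 as circles, replicate 2 as triangles and the line through the geometric mean of 2 arrays. Hagh stands at 454 to 703 at 4 and 8 h and at 69.4 to 234 at the other times, both Hmox1 probe sets have their lowest pair of arrays at 4 h, and both Gstt2 probe sets have a low pair at 8 h.

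Gsr encodes glutathione reductase. Its probe set rc_AA893189_at had 64.1 and 44.3 in the controls, 85.2 and 93.3 at 2 h, 125 and 69.1 at 4 h, 158 and 112 at 8 h, and 91.5 and 67.9 at 24 h. Every treated array thus lay above both controls, with the 8 h arrays forming the highest pair by mean.

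The log2 changes of this Gsr probe set were 0.74 ± 0.40, 0.81 ± 0.40 and 1.32 ± 0.40 at 2, 4 and 8 h, and none was called (limma adjusted p = 0.999, 0.748 and 0.267; 0.0603 at 8 h with the block). The change at 8 h was alike in both replicates, 1.30 and 1.34. The other Gsr probe sets had 0.45 (U73174_at) and 1.14 (U73174_g_at, with 1 control array at the floor) at 8 h.

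Gclc and Gclm encode the catalytic and the modifier subunit of glutamate-cysteine ligase. Gclc had log2 changes of -0.43 to 0.21 against 0 h over the 4 times. On the probe set S65555_at of Gclm they were 0.26, -0.47, 0.70 and 0.27, and on S65555_g_at 0.25, -0.46, 0.22 and -0.17. Gss, glutathione synthetase, had -0.57 and -0.77 at 4 and 8 h on L38615_at and -0.25 and -0.31 on L38615_g_at. None of these passed the test, and the remaining Gclm probe set was too dim to test.

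Of 10 glutathione peroxidase probe sets, 5 were tested, of Gpx1, Gpx2, Gpx3 and Gpx4. Gpx5, Gpx6, Gpx7, and a probe set each of Gpx1 and Gpx3, were under the intensity limit. Gpx1 encodes the main cytosolic enzyme. Its probe set X07365_s_at had 1135 and 297 in the controls, 279 and 793 at 2 h, 358 and 484 at 4 h, 203 and 571 at 8 h, and 249 and 679 at 24 h. In this probe set replicate 1 was the higher array in the controls and the lower one at every later time.

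The Gpx1 change at 8 h was -0.77 ± 0.81 on X07365_s_at (limma adjusted p = 0.881) and of opposite sign within the replicates, -2.49 and 0.94. The other Gpx1 probe set, X12367cds_s_at, had -0.71. Gpx2, which is best known from the intestine, was dim at 21.2 to 47.1 at all times but 8 h, where its arrays had 76.1 and 66.1, above the other 8. Its log2 change at 8 h was 1.30 (limma adjusted p = 0.395), and it is named here for its values. Gpx3, the secreted enzyme, and Gpx4, which reduces lipid peroxides and is essential to sperm, had changes of -0.33 and 0.11 at 8 h.

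The glutathione S-transferases were the largest role, with 26 tested probe sets of 15 genes, and none was called at any time against 0 h with or without the block. At 4 h, 25 of the 26 had a lower mean than at 0 h, with a median log2 change of -0.33. That count depended on which arrays were compared. Without control replicate 1, which leaves only replicate 2 in the controls, 9 of the 26 were lower and the median change was 0.25. Without 4 h replicate 2 it was 15 of 26. Within replicate 1, 22 of 26 were lower at 4 h, and within replicate 2, 13 of 26.

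Control replicate 1 was the highest of the 10 arrays for 13 of the 26 transferase probe sets (50%), against 17% of all tested probe sets. The 24 h array of replicate 1 was the highest for 11 (42.3%), against 14.9% of all. The median transferase probe set lay 0.73 log2 units above its own median on control replicate 1 and 0.50 above it on 24 h replicate 1. On control replicate 2 it lay at -0.32. By these medians the 2 control arrays lay on opposite sides of all 8 treated ones. Control replicate 1 also had the highest total intensity before scaling (2001660, against 1734210 to 1894740 on the others). Its median was the lowest (26.7, against 44.4 on control replicate 2). The shares over all tested probe sets were not matched to the transferases for brightness.

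**Figure D3:**
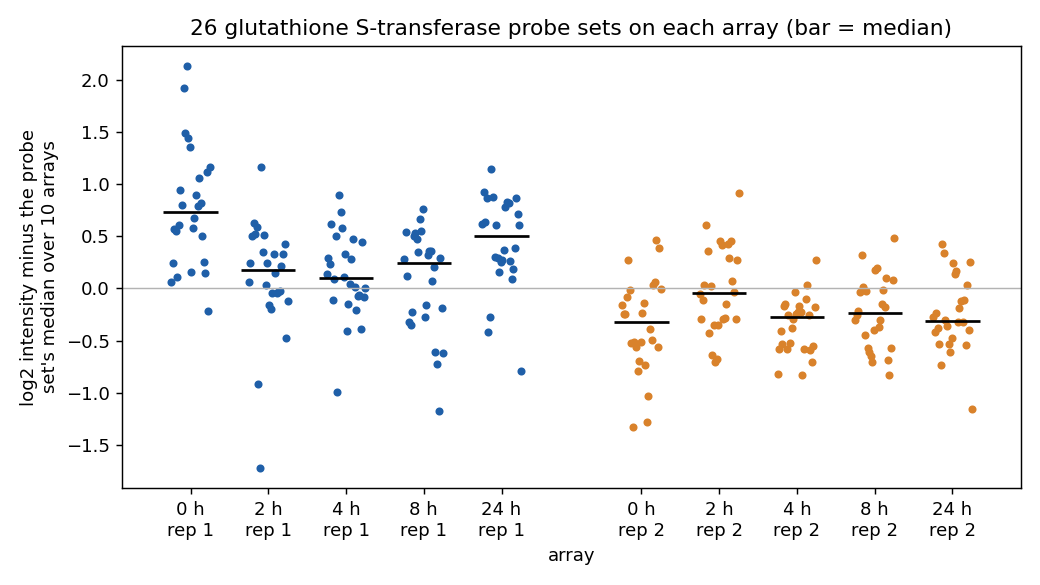
Log2 intensity of 26 glutathione S-transferase probe sets on each array, minus the probe set's own median over the 10 arrays; points are probe sets, black bars are medians, replicate 1 is on the left and replicate 2 on the right. The bar of control replicate 1 stands at 0.73 and that of control replicate 2 at -0.32, and all 5 bars of replicate 1 lie above all 5 of replicate 2.

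Gstt2 encodes a theta-class transferase. Its probe set rc_AI138143_at had 251 and 313 in the controls, 284 and 222 at 2 h, 173 and 139 at 4 h, 100 and 128 at 8 h, and 413 and 231 at 24 h. The 4 arrays of 4 and 8 h lay below the other 6. The log2 change was -0.85 ± 0.38 at 4 h and -1.31 ± 0.38 at 8 h, and neither was called (limma adjusted p = 0.637 and 0.240; 0.0796 at 8 h with the block).

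Within the replicates the Gstt2 change at 8 h was -1.33 and -1.29, and from 8 h to 24 h it was 1.45 ± 0.38 (limma adjusted p = 0.264). The probe set D10026_s_at of Gstt2 had 222 and 195 in the controls and 113 and 116 at 8 h, a change of -0.86 ± 0.38 (limma adjusted p = 0.526). Both probe sets were thus lower at 8 h on both arrays, short of the threshold. Gstt1, the related gene, had -0.52 at 8 h.

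Mgst3, a microsomal member, had 1075 and 477 in the controls, 441 and 901 at 2 h, 479 and 577 at 4 h, 311 and 669 at 8 h, and 276 and 215 at 24 h. The 24 h arrays were the lowest pair. The log2 change at 24 h was -1.56 ± 0.54 (limma adjusted p = 0.996), and -0.97 without control replicate 1. Gsta4, whose product handles the lipid peroxidation product hydroxynonenal, had 782 and 508 in the controls and 425 and 309 at 24 h on X62660mRNA_g_at, a change of -0.80 ± 0.35 (limma adjusted p = 0.996), and -0.67 on its other probe set.

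Gstk1, the mitochondrial and peroxisomal kappa-class gene, differed between its probe sets. On rc_AI105137_s_at it had 110 and 39.7 in the controls and 30.2 and 42.4 at 2 h, a log2 change of -0.88 ± 0.60 (limma adjusted p = 0.999), with -1.87 within replicate 1 and 0.10 within replicate 2. On S83436_i_at it had 381 and 87.1 in the controls and 403 and 277 at 24 h, a change of 0.87 ± 0.74 (limma adjusted p = 0.996). In both probe sets the control and treated arrays overlapped.

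Gstm1 encodes a mu-class transferase. On X04229cds_s_at it had 10146 and 1336 in the controls, 3303 and 1414 at 2 h, 3458 and 1891 at 4 h, 3672 and 1472 at 8 h, and 2822 and 1595 at 24 h. Control replicate 1 was far above every other array. The changes of -0.77 ± 0.89 at 2 h and -0.80 ± 0.89 at 24 h (limma adjusted p = 0.999 and 0.996) turned to 0.69 and 0.67 without that array. That setting leaves only replicate 2 in the controls. Replicate 2 was the lower array at every time (-1.43 against replicate 1), so this difference enters both values.

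Gstm1 and Gstm2, and the Gsta genes, are close paralogs. Several of their probe sets carry the suffixes that mark probes shared by more than one transcript (_s_at, _f_at), so signal from one gene may be counted for another and the values of single genes are uncertain. The 2 Gsta3 probe sets that were not tested were at the floor on all 10 arrays.

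Hmox1 encodes the inducible haem oxygenase. Its probe set J02722cds_at had 188 and 232 in the controls, 120 and 195 at 2 h, 65.4 and 112 at 4 h, 117 and 208 at 8 h, and 136 and 213 at 24 h. Each replicate had its lowest array at 4 h. The log2 change at 4 h was -1.29 ± 0.45, from 210 ± 31.5 to 88.6 ± 32.9, with a limma adjusted p of 0.380, above the threshold, and of 0.0320 with the block. That call was lost when the 2 h arrays, 1 of whose numbers was inferred, were left out of the blocked fit (limma adjusted p = 0.0586).

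The second Hmox1 probe set, rc_AI179610_at, had 419 and 354 in the controls, 273 and 321 at 2 h, 162 and 204 at 4 h, 305 and 390 at 8 h, and 406 and 372 at 24 h. It again had its lowest arrays at 4 h, and the 8 h and 24 h arrays lay near the controls. Its change at 4 h was -1.08 ± 0.32, which was not called (limma adjusted p = 0.245; 0.0770 with the block). Hmox2, the constitutive enzyme, had 0.03 and 0.23 at 4 h on its 2 probe sets.

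Nqo1 encodes a quinone reductase. On J02679_s_at it had 137 and 134 in the controls, 255 and 326 at 2 h, 347 and 83.1 at 4 h, 177 and 145 at 8 h, and 458 and 95.6 at 24 h. Both 2 h arrays were above the controls, while at 4 and 24 h the replicates lay on either side of them. The log2 change at 2 h was 1.09 ± 0.77 (limma adjusted p = 0.999). The other Nqo1 probe set was under the intensity limit.

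Mt3, a metallothionein best known from the brain, had 1011 and 410 in the controls, 782 and 821 at 2 h, 931 and 719 at 4 h, 1304 and 893 at 8 h, and 1799 and 1201 at 24 h. The 24 h arrays lay above both controls. The change at 24 h was 1.19 ± 0.46, which was not called (limma adjusted p = 0.996). It was 1.84 without control replicate 1 and 0.54 without control replicate 2.

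The 7 peroxiredoxin probe sets, of Prdx1, Prdx2, Prdx3 and Prdx6, were all tested and none was called against 0 h. Prdx1, cytosolic, was steady, at 806 to 1077 over the 10 arrays. Prdx3, the mitochondrial enzyme, had 210 and 238 at 8 h and 459 and 389 at 24 h on rc_AA799650_at, a log2 change of 0.92 ± 0.31 between those times (limma adjusted p = 0.526). At 24 h, 6 of the 7 probe sets had a mean above 0 h, with a median change of 0.54. Without 24 h replicate 1, 4 of the 7 were above 0 h and the median was 0.20, but that setting sets replicate 2 against controls of both numbers. Within replicate 1 every probe set but that of Prdx2 was higher at 24 h than at 0 h. Within replicate 2 every probe set but AF014009_at of Prdx6 was. The 3 probe sets of Prdx6, which also acts as a phospholipase, had 0.56 to 0.65 at 24 h. Within replicate 1 these were 0.82 to 1.25, and within replicate 2 they were -0.12 (AF014009_at), 0.23 and 0.48.

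Sod3 encodes the secreted superoxide dismutase. On Z24721_at it had 276 and 119 in the controls, 208 and 146 at 2 h, 425 and 231 at 4 h, 932 and 238 at 8 h, and 579 and 212 at 24 h. Replicate 1 was the higher array at every time, and the groups overlapped. The log2 changes were 0.79 ± 0.73, 1.37 ± 0.73 and 0.95 ± 0.73 at 4, 8 and 24 h (limma adjusted p = 0.999, 0.646 and 0.996; 0.0796 at 8 h with the block), with 1.75 and 1.00 within the replicates at 8 h.

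The second Sod3 probe set, X68041cds_s_at, had 45.4 and 19.3 in the controls, 19.7 and 11.6 at 2 h and 167 and 29.4 at 8 h. Its change was -0.87 ± 0.84 at 2 h (limma adjusted p = 0.999, with 1 of the 2 h arrays under the floor) and 1.24 at 8 h. Both Sod3 probe sets thus had a higher mean at 8 h, short of the threshold, and the size on Z24721_at rested on single arrays: it was 0.39 when 8 h replicate 1 was left out, 2.36 when 8 h replicate 2 was, and 0.77 when control replicate 2 was. Sod1, the cytosolic enzyme, had changes of -0.28 to 0.44 against 0 h over its 3 probe sets and 4 times, and Sod2, the mitochondrial one, -0.57 to 0.47.

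More members were called between the replicate numbers than over time. The 2 counts come from unlike tests and do not rank the effects by size. The replicate comparison sets 5 arrays against 5 in the blocked fit, while each comparison of times sets 2 against 2. Compared over the 5 times, with time in the model, 17 of the 59 differed between replicate 2 and replicate 1 (28.8%), against 15.2% of all probe sets. In replicate 2, 15 were lower (25.4%, against 8.65% of all probe sets) and 2 higher (3.39%, against 6.53% of all). The lower ones were 10 transferase, 4 superoxide dismutase and 1 peroxiredoxin probe sets. The count of 17 ran from 6 to 24 when single arrays were left out. It was 8 without either 4 h array, 6 without either 8 h array, 7 without either 24 h array, and 1 when dim probe sets were kept.

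Beside this stand the marker values given above. Of the 10 germ cell probe sets tested, 7 were called higher in replicate 2 and 0 lower. Of 19 Sertoli probe sets, 7 were called lower, among them Fshr, the FSH receptor, at -0.75, and 0 higher. The Sertoli probe sets that were not called did not all run lower. Vim had 1329, 1013, 1113, 842 and 1543 on the replicate 1 arrays in order of time. On those of replicate 2 it had 1617, 1971, 1099, 1381 and 1951. The germ cell gene Ldhc was at 58.5 to 570 on replicate 1 arrays and at 1007 to 1649 on replicate 2 arrays. Control probe sets of the array differed in part too. BioB-M had deposited values of 889 to 1864 on replicate 1 arrays and 293 to 559 on replicate 2 arrays. Those of CreX-3 overlapped, at 6677 to 16221 against 2815 to 9818. The part of cell makeup, RNA integrity or array processing in the replicate difference of the members was not tested.

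Gstm1 had the widest transferase gap. On H32189_s_at replicate 1 had 5738, 3384, 2809, 2103 and 1867 at 0, 2, 4, 8 and 24 h, and replicate 2 had 1059, 972, 1052, 1015 and 1225. The 2 sets of arrays did not overlap. The log2 difference, replicate 2 minus replicate 1, was -1.46 ± 0.25 (limma adjusted p = 0.00563), lower at 5 of 5 times.

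The other Gstm1 probe sets had -1.43 ± 0.29 (X04229cds_s_at; limma adjusted p = 0.0112) and -1.15 ± 0.22 (J02810mRNA_s_at; limma adjusted p = 0.00843). Both Gstm2 probe sets were called lower in replicate 2 (limma adjusted p = 0.0313 and 0.0161), J03914cds_s_at with -0.99. Gstm5 had 0.16 on U86635_at, and on both of its probe sets the replicates overlapped. The mu-class genes whose promoters are printed above thus had called differences for Gstm1 and Gstm2 and none for Gstm5; the difference between these genes was not tested. Gstm7, a further mu-class gene whose window also held the antioxidant core, had -0.65 ± 0.21, lower at 5 of 5 times. It was not called (limma adjusted p = 0.0646). Among all members with the core, Sod2 (-1.76) and Gsta1 (-0.81 on S72505_f_at and -0.66 on X78848cds_f_at, but not K01932_f_at) were called lower. Gclm, which also has the core, was called higher on S65555_g_at (1.02) and not called on S65555_at (0.70). The other genes with the core were not called. Mgst1 and Gsto1, whose windows lacked the core, were called lower as well. A link between the core and these differences was not tested.

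Mgst1, a microsomal transferase abundant in liver, had 8633, 5360, 5430, 4883 and 6528 on the replicate 1 arrays in order of time and 2710, 3259, 2720, 2687 and 3026 on those of replicate 2. The difference was -1.07 ± 0.19 (limma adjusted p = 0.00654), again without overlap. Gsto1, the omega-class gene, had 1284, 865, 840, 886 and 1229 against 284, 565, 387, 561 and 551 on AB008807_at, a difference of -1.15 ± 0.24 (limma adjusted p = 0.0117), and -0.94 on its second probe set.

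Sod2 had the largest difference of the 59 tested members. It was at 96.2, 340, 387, 183 and 128 on the replicate 1 arrays and at 119, 52.2, 56.5, 46.6 and 40.8 on those of replicate 2. Replicate 2 was higher in the controls and lower at the 4 treated times. The difference was -1.76 ± 0.39 (limma adjusted p = 0.0161). Sod3 had -1.25 ± 0.34 on X68041cds_s_at and -1.20 ± 0.22 on Z24721_at (limma adjusted p = 0.0344 and 0.00766), lower at 5 of 5 times on both.

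Only Gclm and Hmox1 were called higher in replicate 2. On S65555_g_at, Gclm had 26.3, 35.9, 17.5, 30.3 and 20.4 on the replicate 1 arrays and 51.5, 53.5, 40.6, 60.4 and 52.4 on those of replicate 2, with no overlap. The difference was 1.02 ± 0.26 (limma adjusted p = 0.0263). Its probe set S65555_at had 0.70 ± 0.24, which was not called (limma adjusted p = 0.0794). Hmox1 had 0.65 ± 0.17 on J02722cds_at (limma adjusted p = 0.0302), higher at 5 of 5 times, and 0.11 on its other probe set. Hagh and Gpx1 had 0.42 (limma adjusted p = 0.293) and 0.59 (X07365_s_at; limma adjusted p = 0.431), with overlapping arrays.

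**Figure D4:**
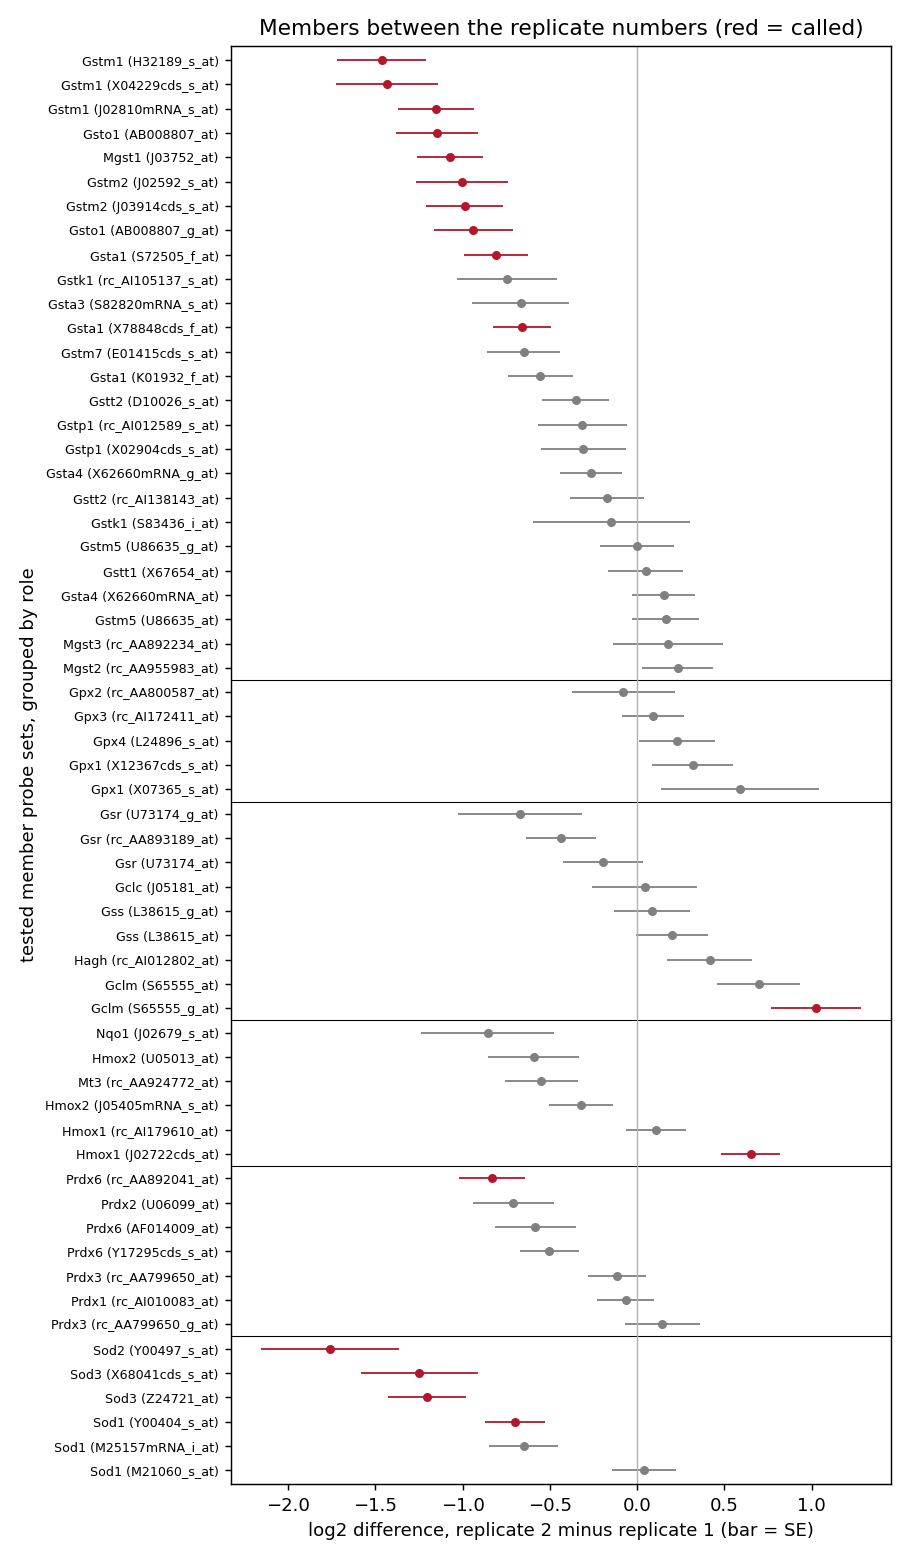
Log2 difference, replicate 2 minus replicate 1, of the 59 tested member probe sets (points, with SE as bars), grouped by role; red marks the 17 that were called. Transferases and superoxide dismutases fill most of the left side, led by Sod2 at -1.76 and Gstm1 at -1.46, and the called points on the right are Gclm at 1.02 and Hmox1 at 0.65.

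Other genes of these pathways were counted in 5 lists (the thioredoxin system and other redox enzymes, the supply of glutathione and recycling of cysteine, the supply of NADPH, the Nrf2 pathway with phase 2 detoxification, and iron and metal binding), with 62 tested probe sets of 42 genes. At 2, 4, 8 and 24 h against 0 h, 0 of the 62 were called, while 2, 7, 15 and 8 had an unadjusted p below 0.05. These are 3.23%, 11.3%, 24.2% and 12.9% of the lists, against 4.57%, 7.75%, 9.3% and 4.6% of all probe sets. The block brought the calls to 1, 2, 3 and 0 (1.61%, 3.23%, 4.84% and 0%, against 1.22%, 2.95%, 2.68% and 0.0901% of all). Between the replicate numbers 10 were called lower in replicate 2 (16.1%, against 8.65% of all) and 4 higher (6.45%, against 6.53% of all).

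Mat2a, which makes the methyl donor S-adenosylmethionine upstream of cysteine, had 352 and 167 in the controls, 1089 and 562 at 2 h, 1334 and 724 at 4 h, 709 and 601 at 8 h, and 315 and 244 at 24 h. Every array of 2, 4 and 8 h lay above both controls. The log2 changes of 1.69, 2.02 and 1.43 at those times were not called (limma adjusted p = 0.428, 0.132 and 0.370), but each was called with the block (adjusted p = 0.0209, 0.0062 and 0.0348).

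Cbr1, a carbonyl reductase, had 1293 and 732 in the controls and 2375 and 3493 at 4 h on D89069_f_at. The change of 1.57 was called with the block (adjusted p = 0.0468) and not without it (limma adjusted p = 0.134). Cdo1, which oxidises cysteine and so draws on the same pool as glutathione synthesis, had 846 and 223 in the controls and 122 and 99.1 at 8 h on rc_AA942685_at, a change of -1.99 (limma adjusted p = 0.414; 0.0388 with the block). Slc11a2, an iron transporter, had 628 and 371 in the controls and 1339 and 787 at 8 h on AF008439_g_at. That change of 1.09 had a limma adjusted p of 0.557, and of 0.0498 with the block. The other tested probe sets of Cbr1, Cdo1 and Slc11a2 ran the same way at these times but were not called with the block. Cbr1 had 1.21 at 4 h on D89070cds_s_at (limma adjusted p = 0.0996 with the block). Cdo1 had -1.98 at 8 h on E03229cds_s_at (0.0518). Slc11a2 had 1.25 on AF008439_at and 1.10 on rc_AA892390_s_at at 8 h (0.0530 and 0.105).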

How the data were processed

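The authors deposited linear intensities, 1 per probe set and array (8799 probe sets, 10 arrays). The processing that made them is not given in the sources used here; the trimmed mean of every array was nearly the same, between 125.2 and 125.27. Replicate 1 was assigned to the 2 h array that carries no number, since the other 2 h array is labelled 2, and the control without a stated time in its title is described as time 0.

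Arrays were scaled (divisors of 0.911 to 1.13) to a shared 75th percentile of 107 over the 8740 probe sets that are not controls (59 controls left out). Values under 13.4 (that percentile divided by 8) were set to that floor and log2 was taken. Probe sets were kept where their mean reached the pooled median of 31.9. Printed intensities are scaled values without the floor. The tests used limma 3.58.1 (R 4.3.3; lmFit, eBayes with an intensity trend, 5 residual degrees of freedom), with 1 mean per group, and adjusted by Benjamini-Hochberg over all 4439 probe sets. The number of arrays limits the precision. The script was tested on simulated data.

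The labels share replicate numbers. Deviations from group means correlated in all 10 pairs of same-numbered arrays (r = 0.11 to 0.698; 0.205 to 0.608 over the 6 pairs without 2 h), so the numbers pair the arrays, and a fit blocked on the number (residual degrees of freedom 4) stands beside results it changes. No 2 arrays held the same values.

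Gene symbols are those of the platform annotation, and all 68 members matched RefSeq (GRCr8) by gene identifier with the same symbol. The array files name no build. Members and lists were chosen with earlier results of these data known. Named by rule were members called in any fit, the 3 largest changes in each direction at each time, the 5 largest replicate differences in each direction, other probe sets of those genes, and listed genes called in either fit. Alternatives were the deposited scaling, quantile normalization, other floors, filters and no trend, the block, and leaving out each array. Glo1 was not analysed here.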

Additional observations from a re-analysis of the deposited data

Results flagged for a closer look

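Hagh is singled out because both arrays of its 4 h and 8 h groups lay above both controls while its level was lower again at 24 h. The log2 change from 8 h to 24 h was -2.63 ± 0.47 (limma adjusted p = 0.0758, and 0.0141 with the replicate block), against 2.73 from 0 h to 8 h. Both values use the 8 h arrays, so they are not independent of each other. Over the alternatives the difference between 24 h and 8 h ran from -2.89 to -2.37.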

How the results depend on the processing

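With 2 arrays a group, each call over time in the fit without the block was lost in some settings that left out 1 array. The blocked calls over time were not put to this check. The change of Hagh at 8 h against 0 h does not use the 4 h or 24 h arrays. Leaving those out altered only the shared spread, the residual degrees of freedom (4 instead of 5) and the adjustment. A setting without 1 array assumes that the lone array of its group varies like the others. It also compares groups with unlike replicate numbers, so the difference between the numbers enters its values. Left out in turn, the arrays gave 0 to 1 called members at 8 h, 0 to 1 in the test of any time, 6 to 24 between the replicate numbers and 6 to 19 lower in replicate 2. The median change of the members ran from -0.50 to 0.34 at 4 h, from -0.30 to 0.36 at 8 h and from -0.21 to 0.45 at 24 h, and the count of transferase probe sets lower at 4 h from 9 to 25. That count, and the count of members lower in replicate 2, were chosen after seeing the data. Signs turned for Gstm1 (X04229cds_s_at, -2.23 to 0.69 at 2 h and -2.26 to 0.67 at 24 h) and Gpx1 (X07365_s_at, -1.74 to 0.20 at 8 h) without control replicate 1, and for Gstk1 (S83436_i_at, -0.19 to 1.94 at 24 h) without control replicate 2.

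With the deposited scaling 0 members were called at 8 h and 0 at any time. With no filter on dim probe sets the counts were 0 at 8 h, 0 at any time, 1 between the replicate numbers and 0 lower in replicate 2. The count at any time was also 0 with quantile normalization, with the lower floor and with no intensity trend. The replicate block gave 2 called members at 4 h (Hagh and Hmox1) and 1 at 24 h against 8 h (Hagh). Without the 2 h arrays, 1 of whose numbers was inferred, it gave 1 and 1 (Hagh). The block changed no other call of a member. The causes were not tested.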
